A study of Homo sapiens with 30 samples.

Results

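The genes described here encode the network of transcription factors built around MAX: the MYC family (MYC, MYCN and MYCL1, the last now named MYCL), MAX itself, the MAX partners MXD1, MXI1, MXD4, MNT and MGA, and MLX. They were taken by symbol from the PRO-Seq table, and all 10 were found among its 20367 gene symbols, each with 1 transcript. PRO-Seq, a nuclear run-on assay of engaged RNA polymerases, was made in 3 samples each of cells expressing EGFP, SNF5 or OMOMYC, beside ATAC-Seq of open chromatin (3 samples per construct) and MYC ChIP-Seq (2 samples per construct). All samples were G401, a malignant rhabdoid tumor cell line that lacks SNF5 (the product of SMARCB1). They carried an HA-tagged, TET-inducible lentiviral construct as a selected pool of cells, and had 24 h of induction by doxycycline at 1 μg/ml. EGFP was the control, SNF5 restored the missing SWI/SNF subunit, and OMOMYC, a mutant form of the dimerization region of MYC, acts as a dominant negative against MYC.

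MYC proteins do not bind DNA alone: they pair with MAX, and the pair recognizes the E-box CACGTG and mostly activates genes. MXD1, MXI1, MXD4, MNT and MGA compete for MAX and for the same E-box, and recruit repressors, SIN3 and histone deacetylases for the MXD proteins and MNT and a Polycomb complex for MGA. MLX is a MAX-like partner that joins the network to MXD1, MXD4, MNT and the nutrient-sensing factors MLXIP and MLXIPL.

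The PRO-Seq libraries held 28444943 to 46957634 gene body reads and 518900 to 3386528 promoter-proximal reads. The 3 libraries of replicate 1 had the fewest promoter-proximal reads, 1.49 to 2.01 per 100 gene body reads, against 4.40 to 11.5 in the other 6. SMARCB1 had 1 to 6 gene body reads in the EGFP libraries, 2 to 5 with OMOMYC and 2870 to 4467 with SNF5. Reads of an introduced coding sequence are thus counted in the gene body of its gene. The mesenchymal marker VIM had at least 6423 reads in every library, while PTPRC and PECAM1, which mark blood and endothelial cells, had at most 1. The study describes the samples of a construct as biological replicates. The p-values measure the spread between them that is left after the level of each replicate number is removed.

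Among the members, polymerase density in the gene body of EGFP cells was highest on MYC. Its 3 EGFP samples had 23.5, 28.2 and 19.8 RPKM, that is, gene body reads (from 1 kb past the start to the end of the transcript) per kb and scaled to the library's gene body total. The mean, 23.8 ± 4.23 (SD, n = 3), was above that of 99.2% of the genes in the table. MLX followed at 4.73 ± 0.397, MNT at 3.65 ± 0.216, MXD4 at 3.02 ± 0.902 and MXD1 at 1.97 ± 0.656. MAX, the shared partner, lay at 1.32 ± 0.0898, close to MGA at 1.28 ± 0.0704 and MYCL1 at 1.21 ± 0.298. MXI1 was the lowest of the transcribed members, at 0.771 ± 0.114. In this order, MYC, MLX and MXI1 did not overlap their neighbors in range, whereas each neighboring pair from MNT to MYCL1 did. MYCN, the paralog amplified in neuroblastoma, was close to silent: 5 gene body reads and 1 promoter-proximal read were counted over all 9 libraries, 6 of which had no gene body read. A count of 0 allows up to 3 reads, for counting error only, so MYCN was not detectable in those 6 libraries, and it was not tested.

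**Figure D1:**
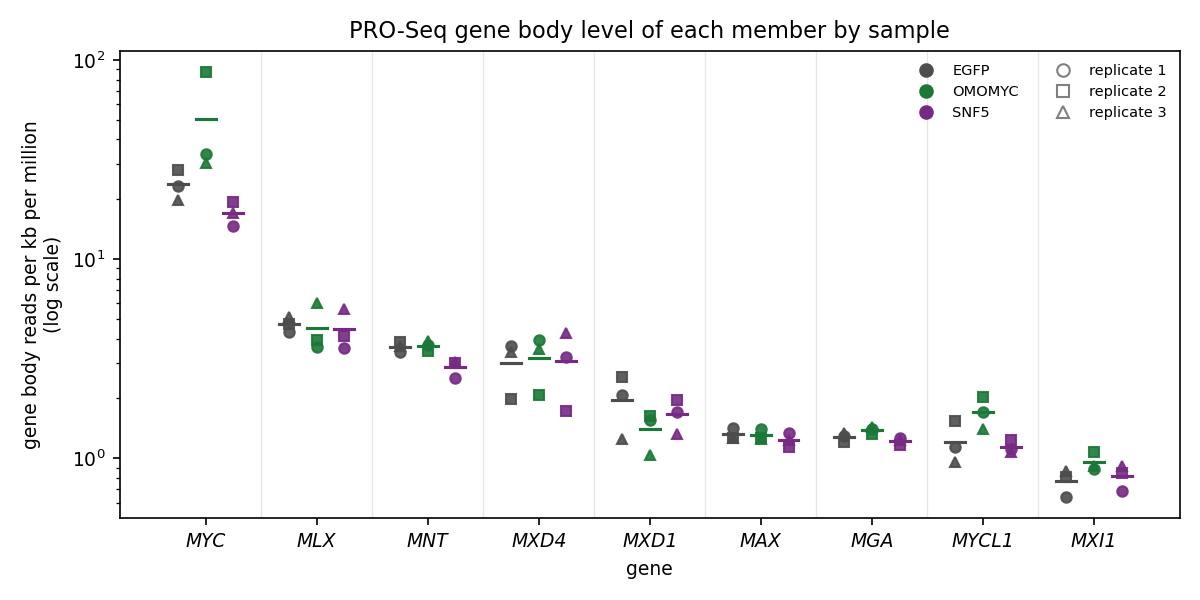
PRO-Seq gene body level (RPKM, log axis) of the 9 members with reads, by construct (color) and replicate (marker), with the mean as a line. MYC lies above every other member in all 9 samples, and its OMOMYC replicate 2 value, 87.3, stands above the other 8.

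MYC was bound at the loci of 3 members in both EGFP ChIP-Seq samples: MXD1, MNT and MGA. A gene was called bound when overlapping peaks of the 2 samples had their summits within 1 kb of an annotated start, which 5.10% of the annotated genes met. Any annotated start could count, and the shares of genes given here were not matched for the number of starts. The EGFP lists differed in size, with 940 peaks in replicate 1 and 5396 in replicate 2. MAX, MXI1 and MXD4 had such a peak in replicate 2 alone, making 6 of the 10 members with one in that sample, against 26.2% of genes. No MYC peak lay at a start of MYCN, MYCL1 or MLX in either sample. At a more stringent overlap of 50% of each peak, MNT was the sole bound member, and with the start of the table's transcript alone, MXD1 was.

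The DNA under these summits is shown for MXD1 and MNT, both of them MAX partners of the repressor arm. The 3 sites below are 121 bases of the + strand of GRCh37 (hg19), taken from EGFP replicate 1, the sample with fewer peaks, and centered on the CACGTG within 100 bases of the summit where there was one and on the summit otherwise. Capitals mark the E-box CACGTG, which reads the same on both strands. The second MNT site has none, and there the capitals mark the looser motif CANNTG, of which every E-box above is also a match.
MXD1, chr2:70141360-70141480: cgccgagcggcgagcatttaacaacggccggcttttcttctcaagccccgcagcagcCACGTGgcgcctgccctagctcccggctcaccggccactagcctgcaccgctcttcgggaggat
MNT, chr17:2302966-2303086: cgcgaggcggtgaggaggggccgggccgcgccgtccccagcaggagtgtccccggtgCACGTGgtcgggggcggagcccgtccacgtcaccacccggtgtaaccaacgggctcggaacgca
MNT, chr17:2297138-2297258: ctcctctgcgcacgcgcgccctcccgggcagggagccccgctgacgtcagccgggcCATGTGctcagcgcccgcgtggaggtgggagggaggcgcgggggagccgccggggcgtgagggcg
CACGTG lay within 100 bases of 53.2% of the summits of all regions bound in both samples (replicate 2 summits), of 51.3% of replicate 1 peaks and of 26.1% of replicate 2 peaks.

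MXD1, the MAX partner linked to terminal differentiation, lies on chromosome 2 from 70142173 to 70170076 (hg19, + strand). Its MYC summits lay 742 and 582 bases before the start of the table's transcript, in an intron of 1 of 6 annotated transcripts. The fold enrichments were 8.64 and 6.88, and CACGTG was near the replicate 1 summit only. MNT, the most widely expressed MAX partner, lies on chromosome 17 from 2287354 to 2304258 (hg19, − strand) and had 2 intronic sites bound in both samples. The site 1.2 kb into the gene, at 1211 and 1224 bases from the start, had enrichments of 4.94 and 9.86 and a CACGTG near each summit. The other, at 7060 and 7052 bases, had enrichments of 8.75 and 9.63, no CACGTG near either summit, and lay within 100 bases of another annotated MNT start (74 and 82). Replicate 2 had 2 further peaks, 8047 bases into the gene and at −886. MGA, a large protein that carries both a T-box and a MAX-binding domain, lies on chromosome 15 from 41952610 to 42062141 (hg19, + strand). Its shared peak was not at that start but at an upstream annotated start, with enrichments of 4.88 and 8.08. Each of those summits had a CACGTG within 100 bases. Replicate 2 had a second MGA peak, 361 bases past the start in the table, with an enrichment of 7.75 and no CACGTG.

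With SNF5, the ChIP-Seq lists held 137 and 27 peaks, none of them at a start of MXD1, MNT, MGA, MAX, MXI1 or MXD4. With OMOMYC, each list held a single placeholder line and no peak. A list holds no read counts, so the strength of signal at a site without a peak is unknown, and the loss of these peaks moves with the size of the whole list.

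The peaks over MYC itself were of another kind. MYC (chromosome 8 from 128748315 to 128753680, hg19, + strand) had no peak in EGFP replicate 2 or SNF5 replicate 2, but replicate 1 of each had 2, with both summits in coding exons. In EGFP replicate 1 the enrichments were 5.24 in exon 2 and 5.42 in exon 3. In SNF5 replicate 1 they were 5.33 and 8.56. The peaks lay almost wholly within the coding sequence. Those of EGFP replicate 1 covered 83.9% of the coding part of exon 2 and 76.6% of that of exon 3, and stopped 82 and 87 bases short of the coding ends. Those of SNF5 replicate 1 covered 94.0% and 96.1%, with at most 7 bases outside it, and stopped 46 and 19 bases short. ATAC-Seq had sites over the same exons. In EGFP replicate 2 and OMOMYC replicate 2, and in none of the other 7 samples, a merged site of 781 bases covered 99.6% of coding exon 2 and ended 12 bases past it. A second site of 569 bases covered all 560 coding bases of exon 3 and ended 5 bases past the last of them, although the exon itself runs on to 2556 bases. The samples with these peaks include EGFP samples, which carry no OMOMYC construct. Peak lists cannot tell reads of the genomic locus from reads of an introduced MYC coding sequence, and what produced the peaks was not tested. Without the peaks over coding exons, MYC had no MYC ChIP-Seq peak in any sample.

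**Figure D2:**
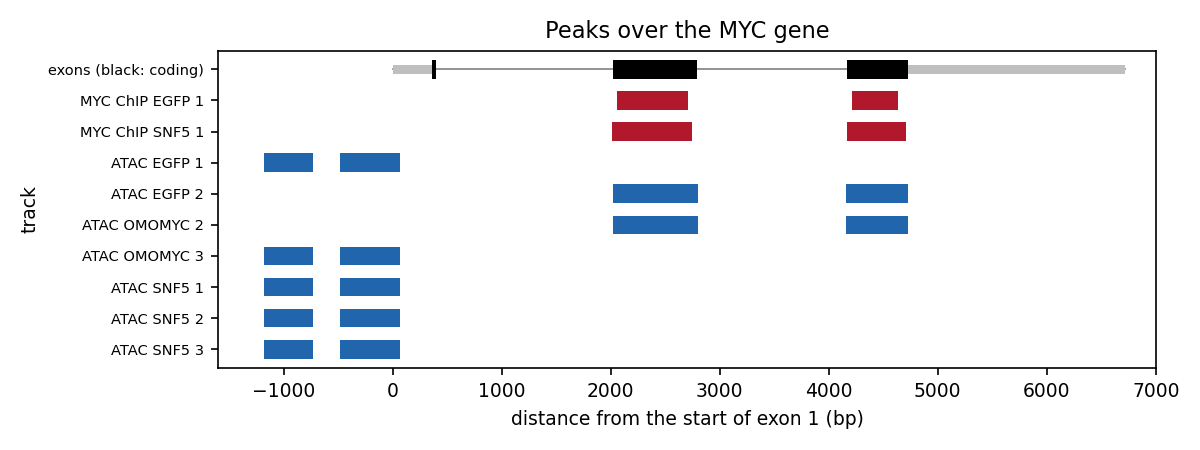
Peaks over the MYC gene against its 3 exons, as the distance in bp from the start of exon 1. Red bars are MYC ChIP-Seq peaks and blue bars merged ATAC-Seq sites, each drawn in the samples that had it. The ATAC-Seq sites over exons 2 and 3 end within 12 bases of the coding ends (black), and the ChIP-Seq peaks there stop 19 to 87 bases short of them. The site upstream of exon 1 and the site at its start are present in 1 EGFP, 1 OMOMYC and all 3 SNF5 samples.

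Open chromatin was called at the starts of 5 of the 10 members in every EGFP sample. An ATAC-Seq peak lay within 1 kb of a start in all 3 EGFP samples for MAX, MXD1, MXI1, MXD4 and MNT, against 34.6% of genes. Any annotated start could count, and these members had 14, 5, 37, 4 and 9 of them. The share of genes was not matched for the number of starts. MAX, MXD1, MXI1 and MXD4 had one in all 9 samples. At MXD1, the same site was called in every sample, with fold enrichments of 6.71 to 10.1. MNT lacked one in OMOMYC replicate 3 alone. MYC, MGA and MYCL1 had one in 2 of 3 EGFP samples and in 3, 2 and 2 of the 3 SNF5 samples. At MYC, 2 sites near exon 1 were called in 1 EGFP, 1 OMOMYC and all 3 SNF5 samples. The first ended 737 bases before exon 1 and the second reached 63 bases into it. The other peaks counted at its starts were those over the coding exons, without which MYC had a peak in 1 of 3 EGFP samples. SNF5 samples had more peaks in all (22722 to 33596, against 9208 to 17817 with EGFP and 7260 to 23684 with OMOMYC), so a peak seen more often with SNF5 at a member moves with the size of the lists. MYCN, with reads in 3 of 9 PRO-Seq libraries, had a site 516 bases from a start in 1 EGFP, 2 OMOMYC and 2 SNF5 samples.

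MLX stood at the other end, transcribed but without a peak. It had no ATAC-Seq peak within 1 kb of its 9 annotated starts in any of the 9 samples, and no MYC peak, although its gene body density ranked second among the members. Its RefSeq promoter nonetheless holds an E-box 50 bases before the start. Promoter windows (RefSeq, GRCh38.p14, 250 bases before to 50 after each start) were found for 9 of the 10 members, all but MYC. Of their 14 windows 3 held CACGTG (21.4%), 1 each of MLX, MXD4 and MNT, against 7.26% of all 35116 windows. The MLX and MXD4 stretches, on the strand of each gene with CACGTG in capitals, contrast a start never called open with one open in every sample.
MLX, + strand, chr17:42566990-42567099: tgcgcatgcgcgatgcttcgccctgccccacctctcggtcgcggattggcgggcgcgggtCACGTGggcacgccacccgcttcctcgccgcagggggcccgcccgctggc
MXD4, − strand, chr4:2262250-2262359: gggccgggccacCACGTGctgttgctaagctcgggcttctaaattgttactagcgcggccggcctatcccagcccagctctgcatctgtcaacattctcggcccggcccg
MLX was also the sole member with a site gained with SNF5 (a peak in all 3 SNF5 samples and no EGFP sample) within 50 kb, which 21.0% of genes had. The site, on chromosome 17 from 42554715 to 42554961 (hg38), lay 12111 bases from the nearest MLX start, and OMOMYC replicate 2 had it too. Its enrichments with SNF5 were 4.55, 5.33 and 4.97. With sites present in at least 2 of 3 SNF5 samples and no EGFP sample, MYC joined MLX.

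**Figure D3:**
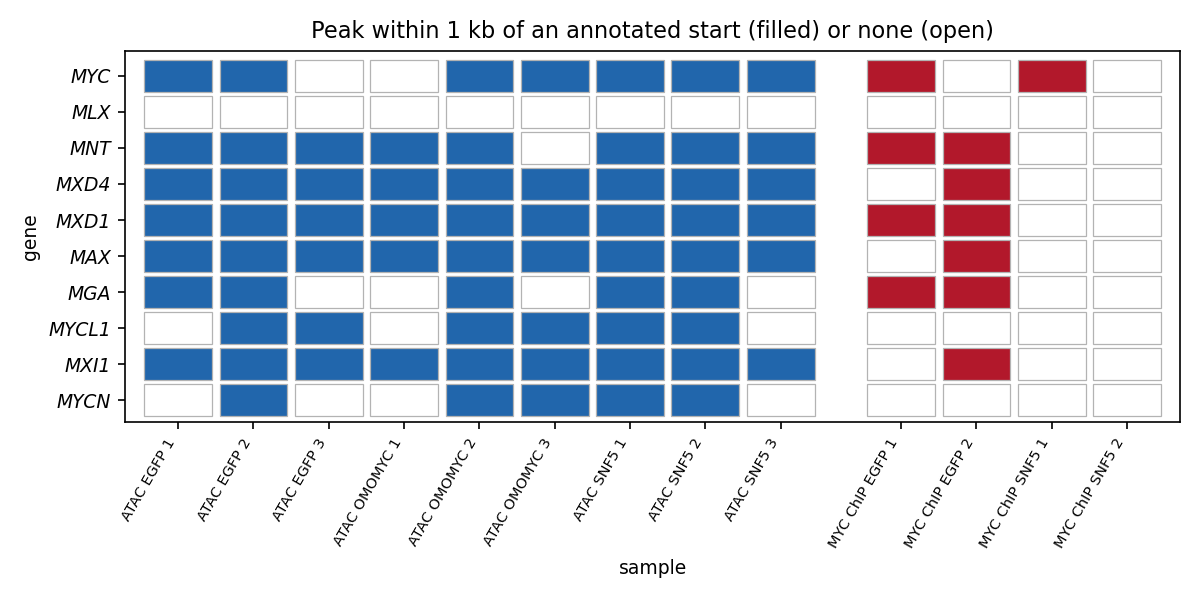
Samples with a peak within 1 kb of an annotated start of each member: filled cells have a peak (blue ATAC-Seq, red MYC ChIP-Seq), open cells none. MAX, MXD1, MXI1 and MXD4 are open in all 9 ATAC-Seq samples and MLX in none. The OMOMYC ChIP-Seq lists, with no peak, are not drawn.

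With OMOMYC, gene body reads changed on 4 of the 9 members tested: MYC, MYCL1 and MXI1 rose and MXD1 fell. Across all genes, 8.49% passed the same test (edgeR, replicate number as a block, adjusted p under 0.05). The median log2 fold change of the 9 members was 0.07, against 0.00 for all genes. MYC had gene body levels of 102, 123 and 86.5 CPM (reads scaled to the library's gene body total, not to length) with EGFP and 147, 381 and 132 with OMOMYC. Each OMOMYC sample was above all 3 EGFP samples, and replicate 2 stood far above the others. The log2 fold change was 0.95 (SE 0.22, adjusted p = 0.037), a 1.93-fold rise, and within replicates 1, 2 and 3 it was 0.52, 1.63 and 0.61. Without replicate 2 it was 0.58 (adjusted p = 0.39), and without replicate 1, 1.17 (adjusted p = 0.47). OMOMYC derives from exon 3 of MYC, which lies in the counted gene body, so transcripts of the construct and of the endogenous gene cannot be told apart. In the window at the MYC start, which precedes exon 3, the log2 fold change was 0.00 (SE 0.20, 95% interval −0.41 to 0.42). PVT1, the noncoding gene downstream of MYC, had a gene body change of −0.17 (adjusted p = 0.083).

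MYCL1 (chromosome 1 from 40361096 to 40367687, hg19), the MYC paralog first found in lung cancer and transcribed far less than MYC in these cells, had 6.35, 8.61 and 5.35 gene body CPM with EGFP and 9.59, 11.4 and 7.87 with OMOMYC. The groups overlapped, since OMOMYC replicate 3 was below EGFP replicate 2, yet MYCL1 was higher with OMOMYC within each replicate (log2 0.60, 0.40 and 0.56). The log2 fold change was 0.52 (SE 0.13, adjusted p = 0.047). MXI1, a MAX partner of the MXD family (chromosome 10 from 111967363 to 112047123, hg19), had 50.6, 63.8 and 67.8 CPM with EGFP and 69.4, 84.5 and 72.3 with OMOMYC. All OMOMYC samples were above all EGFP samples, with a log2 fold change of 0.32 (SE 0.08, adjusted p = 0.047) and 0.46, 0.41 and 0.09 within replicates. MXD1, the bound gene with an accessible start in every sample, moved the other way. It had 56.2, 68.7 and 33.9 CPM with EGFP and 42.2, 43.8 and 28.1 with OMOMYC, a log2 fold change of −0.45 (SE 0.09, adjusted p = 0.029). Its groups overlapped, but MXD1 was lower with OMOMYC in each replicate, by −0.41, −0.65 and −0.27 on the log2 scale. These calls rested on 3 replicates: without replicate 1 the adjusted p was 0.53 for MYCL1, 0.54 for MXI1 and 0.47 for MXD1, and without replicate 2 it was 0.44, 0.46 and 0.44, with every direction kept.

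The shared partner did not pass the test. MAX (chromosome 14 from 65472892 to 65569227, hg19) had 136, 121 and 121 CPM with EGFP and 134, 121 and 119 with OMOMYC, a log2 difference of −0.01 with a 95% interval of −0.13 to 0.11. The intervals of MNT (−0.15 to 0.19), MXD4 (−0.18 to 0.33) and MLX (−0.34 to 0.15) also covered 0. MGA was at 0.11 (SE 0.05, adjusted p = 0.17), and higher with OMOMYC in each replicate. MXD4 (chromosome 4 from 2249160 to 2263739, hg19) varied with the replicate number more than with the construct: its 3 replicate 2 libraries had 23.6 to 28.2 CPM and the other 6 had 44.1 to 58.2.

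With SNF5, MNT was the sole member of 9 tested whose gene body reads changed, where 34.4% of all genes passed. The members' median log2 fold change was −0.09, against −0.03 for all genes. MNT had 54.3, 61.1 and 58.6 CPM with EGFP, 58.8, 55.2 and 61.9 with OMOMYC, and 40.3, 48.0 and 48.4 with SNF5. The SNF5 samples were below all 6 others. The log2 fold change from EGFP was −0.35 (SE 0.08, adjusted p = 0.0079), and within replicates −0.43, −0.35 and −0.27. Without replicate 1 it was −0.32 (adjusted p = 0.081), and without replicate 2, −0.34 (adjusted p = 0.071). Without replicate 3, 6 members passed (MXD1, MYC, MXD4, MNT, MAX and MLX), where 57.5% of all genes did. MYC had 64.4, 85 and 74.7 CPM with SNF5, all below the EGFP samples, with a log2 difference of −0.46 (SE 0.22, adjusted p = 0.13) and −0.67, −0.54 and −0.21 within replicates. When the EGFP and SNF5 samples were fitted alone, MYC passed too. MXD1 was at −0.20 (adjusted p = 0.13), and lower in replicates 1 and 2 only. MAX was at −0.09 (95% interval −0.21 to 0.03), MXI1 at 0.08 (−0.10 to 0.27), MXD4 at 0.00 (−0.25 to 0.26) and MYCL1 at −0.05 (−0.36 to 0.25).

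The direct comparison of SNF5 with OMOMYC separated 4 of the 9 members, all lower with SNF5, where 19.0% of all genes passed and 7.56% passed and were lower. MYC differed by −1.42 on the log2 scale (SE 0.23, adjusted p = 0.0032). This held without replicate 1 (−1.53, adjusted p = 0.020) and without replicate 2 (−1.0, adjusted p = 0.0057), within the limit that OMOMYC transcripts may be counted. MYCL1 differed by −0.57 (adjusted p = 0.017), MNT by −0.37 (adjusted p = 0.010) and MGA by −0.18 (adjusted p = 0.033), with the same sign in each replicate. Without replicate 1 none of these 3 passed (adjusted p of 0.18, 0.16 and 0.24), and without replicate 2 MNT alone did (adjusted p = 0.045, against 0.21 for MYCL1 and 0.27 for MGA). With only the SNF5 and OMOMYC samples in the fit, MGA had an adjusted p of 0.055. MXI1 (−0.24, adjusted p = 0.075) and MXD1 (0.25, adjusted p = 0.091) did not pass.

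**Figure D4:**
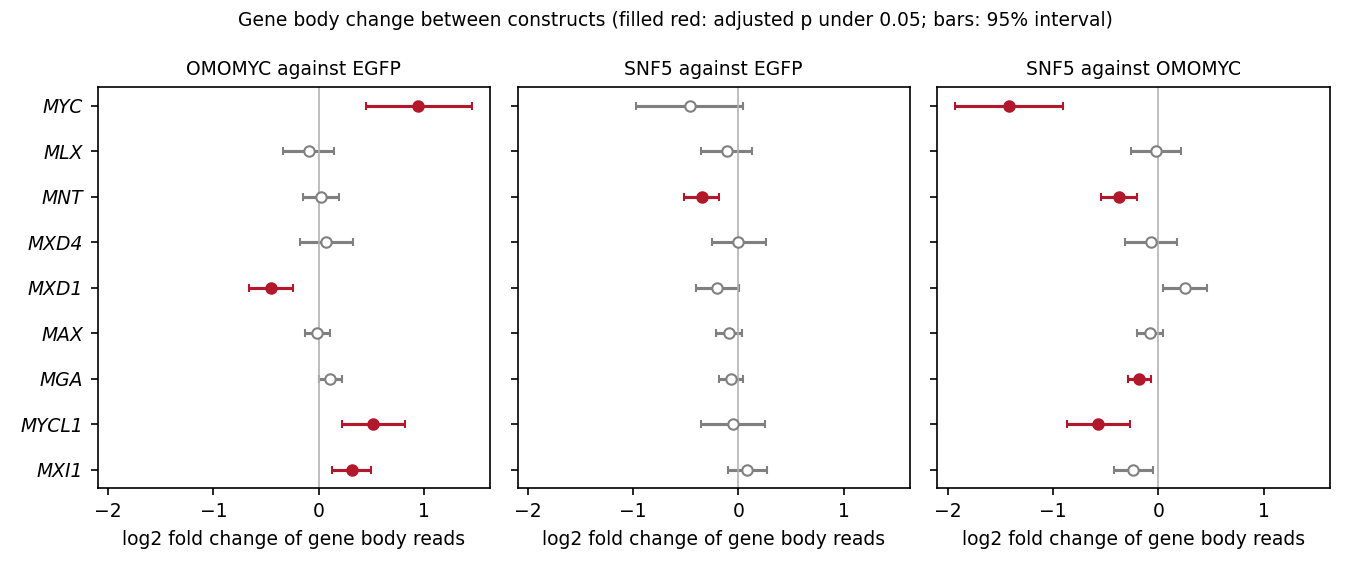
Log2 fold change of gene body reads of 9 members between constructs, with 95% intervals from edgeR. Filled red points have an adjusted p under 0.05: 4 members with OMOMYC against EGFP, 1 with SNF5 against EGFP, and 4 with SNF5 against OMOMYC.

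At the promoter, where the window of 50 bp with the most reads within 500 bp of the start was counted, no member passed with either construct. Among all genes 1.75% passed with OMOMYC and 4.30% with SNF5. By edgeR, 1 member had an unadjusted p under 0.05 with OMOMYC (MNT, log2 0.69, adjusted p = 0.19) and none with SNF5, and DESeq2 also called none. These windows held few reads, from 15 to 567 per library over the 9 members, and the 95% interval of MYC with SNF5 ran from −0.20 to 0.63.

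The pausing index, the ratio of promoter-proximal to gene body reads per base, changed at MYC alone among the members. It was 5.21, 10.2 and 6.08 with EGFP, 4.41, 2.94 and 3.75 with OMOMYC, and 11.2, 16.2 and 7.50 with SNF5. The OMOMYC samples were all below the EGFP samples, while the SNF5 samples overlapped them. With OMOMYC the log2 change was −0.92 (SE 0.23, adjusted p = 0.021), opposite in sign to the median of all genes (0.14) and of the members (0.21), and 2.26% of genes passed. The gene body, in which OMOMYC transcripts may be counted, is the denominator of this ratio. The change was −0.47 without replicate 2 (adjusted p = 1.0), and DESeq2 gave an adjusted p of 0.13. With SNF5 no member passed, where 3.66% of genes did. By edgeR, 2 members had an unadjusted p under 0.05, MYC (log2 0.69, adjusted p = 0.076) and MNT (0.72, adjusted p = 0.13), and DESeq2 called none. With OMOMYC, 3 members had an unadjusted p under 0.05 by edgeR: MYC, MNT and MXD1. MNT had a log2 change of 0.70 (SE 0.27, adjusted p = 0.18), with −0.2, 1.38 and 0.71 within replicates 1, 2 and 3. MXD1 had a log2 change of 0.63 with OMOMYC (SE 0.23, adjusted p = 0.15), and was higher in each replicate. Its index was 15.3, 46.1 and 58.9 with EGFP and 23.3, 90.2 and 73.3 with OMOMYC. Pausing ranged widely among members, from a mean of 6.52 ± 2.75 on MNT to 67.4 ± 51.8 on MXI1 in EGFP cells. Replicate 1, with the fewest promoter-proximal reads, had the lowest index of the 3 in each construct for MYCL1, MAX, MXD1, MXI1, MXD4 and MGA.

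**Figure D5:**
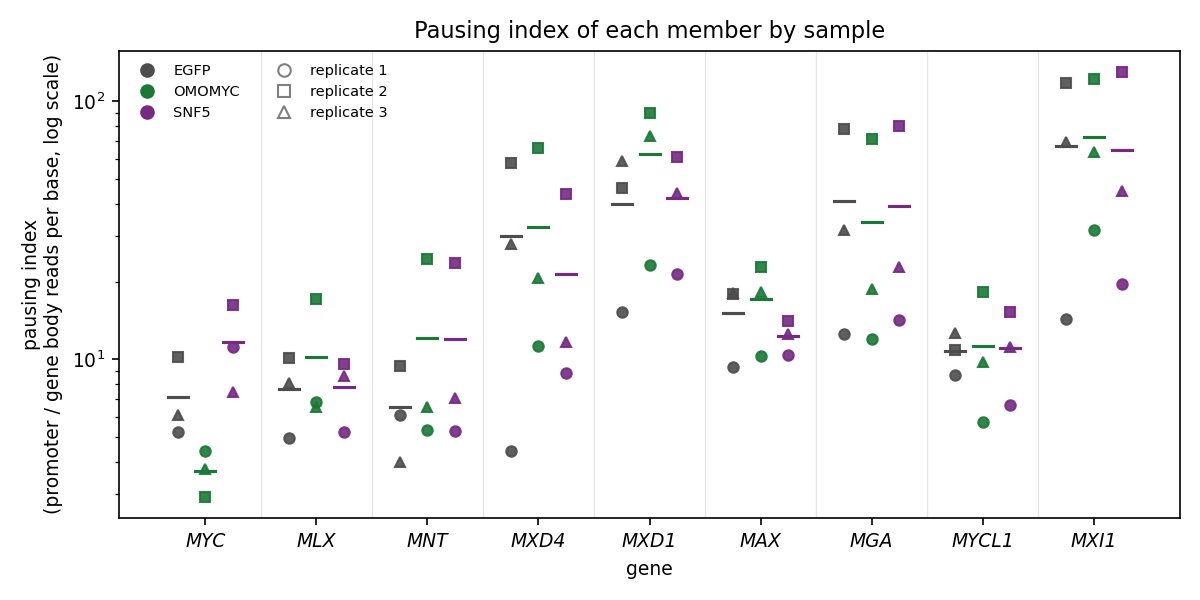
Pausing index (promoter-proximal over gene body reads per base, log axis) of 9 members by construct (color) and replicate (marker), with the mean as a line. The OMOMYC samples of MYC, 2.94 to 4.41, lie below its EGFP and SNF5 samples.

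Of the rest of the network, 2 genes had enough promoter-proximal reads and 1 responded at the promoter. With OMOMYC, 1.75% of all genes passed there and 2.26% passed in pausing index. MXD3, the remaining MXD gene and no member here, had 20, 42 and 53 promoter-proximal reads with EGFP and 48, 127 and 80 with OMOMYC. Its promoter-proximal log2 fold change was 1.12 (SE 0.25, adjusted p = 0.018) and its pausing index rose by 0.97 (adjusted p = 0.047; DESeq2 did not call it), while its gene body reads fell with SNF5 by 0.57 (adjusted p = 0.0038). MYC summits lay at −43 and −103 bases from its start in the 2 EGFP samples, with enrichments of 6.12 and 10.8. Of the 5 further network genes listed (MXD3, MLXIP, MLXIPL, TXNIP and ARRDC4), 3 had enough gene body reads. With OMOMYC, edgeR called none of these 3, where 8.49% of all genes passed. None of the 3 had an unadjusted p under 0.05, and DESeq2 called none. With SNF5, MXD3 and ARRDC4, a glucose-responsive arrestin, fell, 2 of the 3 where 34.4% of all genes passed and 17.1% fell. ARRDC4 fell by 0.66 on the log2 scale (adjusted p = 0.0059). MXD3 and ARRDC4 were also lower with SNF5 than with OMOMYC (−0.73 and −0.51), as was MLXIP (−0.19, adjusted p = 0.042). In that comparison 19.0% of all genes passed and 7.56% passed and were lower.

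Of 6 cofactors of the repressor arm (SIN3A, SIN3B, HDAC1, HDAC2, ZBTB17 and NCOR1), edgeR called none in gene body reads with OMOMYC, where 8.49% of all genes passed. Of these, 2 had an unadjusted p under 0.05, SIN3A (−0.21, adjusted p = 0.053) and HDAC1 (−0.16, adjusted p = 0.10), and DESeq2 called 1. HDAC2, a histone deacetylase, rose at the promoter by 0.92 (adjusted p = 0.025) and in pausing index by 0.93 (adjusted p = 0.019) with OMOMYC. It was 1 of the 6 called in each, where 1.75% and 2.26% of all genes passed. SIN3A (−0.26, adjusted p = 0.0077) and HDAC1 (−0.24, adjusted p = 0.012) fell with SNF5, 2 of the 6 where 34.4% of all genes passed. ZBTB17, the zinc finger partner of MYC also called MIZ1, was lower with SNF5 than with OMOMYC (−0.25, adjusted p = 0.041). It was 1 of the 6, where 19.0% of all genes passed and 7.56% passed and were lower.

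The Polycomb complex that MGA anchors had 9 of its 10 listed genes tested. With SNF5, 5 fell and 1 rose, where 34.4% of all genes passed and 17.1% fell: WDR5 (−0.39), TFDP1 (−0.32), PCGF6 (−0.30), L3MBTL2 (−0.24) and E2F6 (−0.22) against RYBP (0.51). With OMOMYC, TFDP1 (−0.32) and WDR5 (−0.29) fell, 2 of 9 where 4.52% of all genes fell. The list's median was −0.22 with SNF5, against −0.03 for all genes. Between SNF5 and OMOMYC, RYBP (0.31) and CBX3 (0.29), a heterochromatin protein, were higher with SNF5 and E2F6 (−0.26) was lower. In this comparison 19.0% of all genes passed. Of 14 MYC turnover genes, 2 were called with SNF5, where 34.4% of all genes passed. FBXW7, the ubiquitin ligase subunit that targets MYC, rose by 0.19 (adjusted p = 0.040), and the deubiquitinase USP36 fell by 0.22 (adjusted p = 0.020). USP36 also fell with OMOMYC, by 0.23 (adjusted p = 0.046), as 1 of the 14, where 8.49% of all genes passed and 4.52% fell.

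Genes that the network is known to control gave the background for these changes. Of 12 textbook MYC targets, 5 fell in gene body reads with OMOMYC and none rose, where 4.52% of all genes fell: the nucleolar genes NOP56 (−0.58), NCL (−0.51) and FBL (−0.40), SRM (−0.57), which makes spermidine, and CCND2 (−0.46), a cyclin. With SNF5, 11 of the 12 fell and none rose, where 17.1% of all genes fell. TERT, the telomerase subunit, had the lowest log2 change (−1.29), followed by SRM (−0.57), NCL (−0.49), NOP56 (−0.46) and ODC1 (−0.44), which makes putrescine. TERT had few reads: 619 over the EGFP libraries and 304 over the SNF5 libraries (0.145 ± 0.079 and 0.0635 ± 0.043 RPKM). CCND2 varied widely between replicates (7.74 ± 7.59 RPKM with EGFP). LDHA (−0.37), FBL (−0.33), CCND2 (−0.32), CDK4 (−0.28), NPM1 (−0.23) and CAD (−0.21) also fell, and EIF4E did not pass (−0.13, adjusted p = 0.082). Between SNF5 and OMOMYC, TERT alone of the 12 was called, lower with SNF5 (−0.96). Among all genes 19.0% passed this comparison and 7.56% passed and were lower. Of the 10 tested in pausing index, FBL alone was called, by edgeR but not by DESeq2. Its index rose with OMOMYC (0.93, adjusted p = 0.018) and with SNF5 (0.79, adjusted p = 0.037), where 2.26% and 3.66% of all genes passed. In gene body reads, the medians of the 12 were −0.30 with OMOMYC and −0.35 with SNF5, against 0.00 and −0.03 for all genes. In pausing index, the medians of the 10 were 0.44 with OMOMYC and 0.39 with SNF5, against 0.14 and 0.01 for all genes. Both comparisons share the EGFP samples.

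Likeness to MYC was measured as Pearson r of log2 gene body CPM over the 9 libraries, after each replicate number's mean was removed, among 12161 other genes with a mean of at least 100 reads. The libraries share constructs and depth, so r is a description. OMOMYC transcripts may be counted in the gene body of MYC, so likeness to MYC may include the signal of the construct. The most alike were APOBEC3D (0.992), CELSR3 (0.989), MYL9 (0.988), DYNC1H1 (0.987) and EPN2 (0.987), whose own differences were smaller, at most 0.21 on the log2 scale. Among members, MYCL1 (0.872) and MGA (0.862) were nearest to MYC, and MXD1 (−0.61) was the farthest. For MAX, the most alike were NPRL2 (0.991), INCENP (0.989), TET3 (0.985), ATG9A (0.985) and ZNF589 (0.984).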

How the data were processed

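Deposited files were used as they stood, and reads were not realigned. PRO-Seq was trimmed by the authors with cutadapt, aligned to hg19 with Bowtie2 and counted with NRSA; the deposited counts are raw reads per transcript on the coding strand, and the deposited signal is the gene body density in reads per bp, used only to derive gene body length. The authors called peaks in each sample with MACS2 (ChIP-Seq on hg19 at q = 0.01, ATAC-Seq on hg38 at q = 0.001). The fold ratio over local background was computed by the authors with MACS2 and is used as deposited. The −log10 p and −log10 q values were also computed by the authors with MACS2 and are used as deposited. The lists give no depth. IgG samples and the OMOMYC ChIP-Seq lists, each a placeholder line, were not used here.

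The members, gene lists and tests were chosen with earlier results of these data known. Named were all members, and for each further list the genes that passed; 1 listed cofactor and the sequence of 1 site are not reported here. Counts were tested with edgeR 4.0.16 in R 4.3.3 (quasi-likelihood, Benjamini-Hochberg over all genes with a mean of at least 10 reads), all 9 libraries, construct plus replicate block, and gene body totals times RLE factors as library sizes. The pausing index was the interaction of region and construct with a term per sample. Numbers pair the samples: after construct means were removed, gene body correlations between same-numbered libraries were 0.753 to 0.882, and −0.668 to 0.126 otherwise. Alternatives were TMM, no filter, DESeq2 1.42.0, no block, 2 constructs only, leaving out each replicate, and other peak thresholds and distances. Starts came from GENCODE release 44 in GRCh37, with the GRCh38 positions it lists for ATAC-Seq. The MYC ChIP-Seq distances used 19697 matched genes. Scripts were tested on simulated data, and used Python 3.11.15, pandas 2.3.3, NumPy 2.4.6, pyfaidx 0.9.0.4 and matplotlib 3.10.9.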

Additional observations from a re-analysis of the deposited data

How the results depend on the processing

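Of 10 member calls in gene body reads and pausing index, all kept their direction under every alternative, and all stayed past the threshold under TMM, without the filter and without replicate 3. DESeq2 and the fit of 2 constructs lost 1 call each, leaving out replicate 1 or replicate 2 lost 8 each, and removing the replicate block lost all 10; the cause was not tested. Without the block, the members called were 0 in every comparison, and the genes called fell from 1279, 5181 and 2858 (gene body, OMOMYC against EGFP, SNF5 against EGFP, SNF5 against OMOMYC) to 1, 223 and 75, and to 0 in the others (edgeR, with at most 48 unadjusted p under 0.05). With 1 replicate left out, members called ran from 0 to 6, 0 to 6 and 1 to 8 in those comparisons, from 0 to 1 at the promoter with either construct, and from 0 to 2 (OMOMYC) and 0 to 1 (SNF5) for the pausing index. All genes then ran from 2 to 6752, 1423 to 8592 and 737 to 6269, from 3 to 856 and 47 to 1001 at the promoter (197 and 483 with all replicates), and from 0 to 953 and 4 to 620 for the pausing index (252 and 409), where the 0, without replicate 2, had 497 unadjusted p under 0.05. DESeq2 called 2108 gene body changes with OMOMYC, 312 promoter changes with SNF5, and 68 (OMOMYC) and 101 (SNF5) pausing changes, with no member in the pausing index. The fit of 2 constructs called 2 members with SNF5 in the gene body, 2000 genes with OMOMYC, and 176 pausing changes with SNF5. Without the filter, 298 and 807 genes passed at the promoter.

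Members bound by MYC numbered 3, but 1 with a 50% reciprocal overlap or the table's start alone, and from 4 to 6 when the peaks of 1 EGFP sample were used. Members open in all EGFP samples numbered 5, and 3 at −log10 q of at least 10, or 5 to 7 without 1 replicate. Members with a gained site numbered 1, but 0 within 10 kb or with 7260 top peaks per sample, 2 when 2 of 3 samples sufficed, and 1 to 3 without 1 replicate. The pausing index rests on promoter-proximal reads (518900 in the shallowest library), and peak lists give no depth.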
